A study of Mus musculus with 4 samples.

Results

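The transcripts described here are those of 10 genes of the KLF (Krüppel-like factor) family of transcription factors: Klf2, Klf3, Klf4, Klf5, Klf6, Klf7, Klf9, Klf10, Klf13 and Klf15. They were chosen by symbol, and all 10 were found among the 24339 genes of the deposited table. The cells were GFP-positive mesenchymal nephron progenitors of mouse kidney, the cap mesenchyme cells that give rise to the nephron, isolated by flow sorting. Six2TGC cells carried GFP-Cre, a fusion of both proteins, on a BAC transgene, a large stretch of genome around Six2 placed elsewhere. Six2Cre cells carried GFP-Cre as a knock-in at Six2, with the genotype Six2 Cre/+. Each line gave 2 libraries of polyadenylated RNA, 4 in all, and cells of both lines express GFP-Cre, so no library without Cre was compared. The labels give no age and leave unsaid whether replicates were separate animals, so p-values reflect the spread between libraries alone, which may be technical for Six2Cre. The name of the deposited table carries the tag E18.

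KLF proteins bind GC-rich and CACCC sequences through zinc fingers near their C-terminal end, and differ mainly in the partners recruited by the rest of the protein. Klf2, Klf4, Klf5, Klf6 and Klf7 are usually counted as activators that recruit acetyltransferases, Klf3 as a repressor that recruits CtBP, and Klf9, Klf10 and Klf13 as repressors that recruit Sin3. Several, among them Klf2, Klf4, Klf6 and Klf10, are known as early-response genes whose transcripts rise soon after a stimulus, while Klf9 and Klf15 are known targets of the glucocorticoid receptor. In the kidney, Klf5 is known from collecting duct epithelium, and Klf4, Klf6 and Klf15 from podocytes.

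Values are FPKM, fragments scaled by transcript length and library size, one per gene and library. Over all genes FPKM summed to 483087 and 481665 in Six2TGC, against 549971 and 537366 in Six2Cre. With Six2TGC replicate 1 set to 1, a rough depth ratio was 0.954 for Six2TGC replicate 2, against 1.85 and 1.88 for Six2Cre, so low values rest on fewer fragments in Six2TGC. Six2TGC replicate 1 stood apart in sex-linked transcripts, with the Y-linked gene Ddx3y at FPKM 12.7 there and listed at 0 in the other libraries. Xist, made from the inactive X chromosome, was at 0.0107 and 75.7 FPKM in Six2TGC, against 56.7 and 60.6 FPKM in Six2Cre, so the Six2TGC libraries were not repeats of 1 RNA sample. The nephron progenitor label matched its markers in both lines, with Six2 at 749 and 816 FPKM in Six2TGC, against 545 and 533 FPKM in Six2Cre, and with all 14 progenitor markers above the filter. Within that list 2 genes were higher and 9 lower in Six2TGC, where 10.8% of all genes tested were higher and 13.5% lower. Cited1, known from the earliest, self-renewing progenitors, stood at 109 and 94.6 FPKM in Six2TGC, against 907 and 878 FPKM in Six2Cre. Without each library in turn the lower count ran from 4 to 9.

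The KLF transcripts of the lines differed in composition. In Six2TGC, Klf3 and Klf13 were higher, and Klf2, Klf4 and Klf10 were lower. Klf6, Klf7, Klf9 and Klf15 had no call. A call here is a Benjamini-Hochberg adjusted p under 0.05 in limma, a linear model fitted to log2(FPKM + 1) of the 11917 genes that averaged 1 FPKM or more, and log2 fold changes are Six2TGC over Six2Cre on that scale, which understates the change of low genes. Of the 10 genes 9 passed the filter. Klf5, at a mean FPKM of 0.687, did not and was not tested. The 5 called of 9 tested stand beside 24.3% called among all genes tested, with 2 higher (10.8% of all genes) and 3 lower (13.5% of all genes). Without either Six2Cre library the count was 1 higher and 1 lower, Klf3 and Klf4, while the count over all genes fell to 1010 without replicate 1 and 1143 without replicate 2, against 2900. The median log2 fold change was -0.05 over the 9 genes and -0.03 over all genes tested. The libraries of one line lay wholly above those of the other for 6 of the 10 genes, which is near the 65.9% found over all genes tested. Six2TGC lay above for 3 (29.5% of all genes) and below for 3 (36.4% of all genes). In the authors' deposited table, 3 of the 10 were significant, Klf3 higher and Klf4 and Klf10 lower in Six2TGC, where 13.5% of the genes they tested were significant, 6.94% higher and 6.52% lower.

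**Figure D1:**
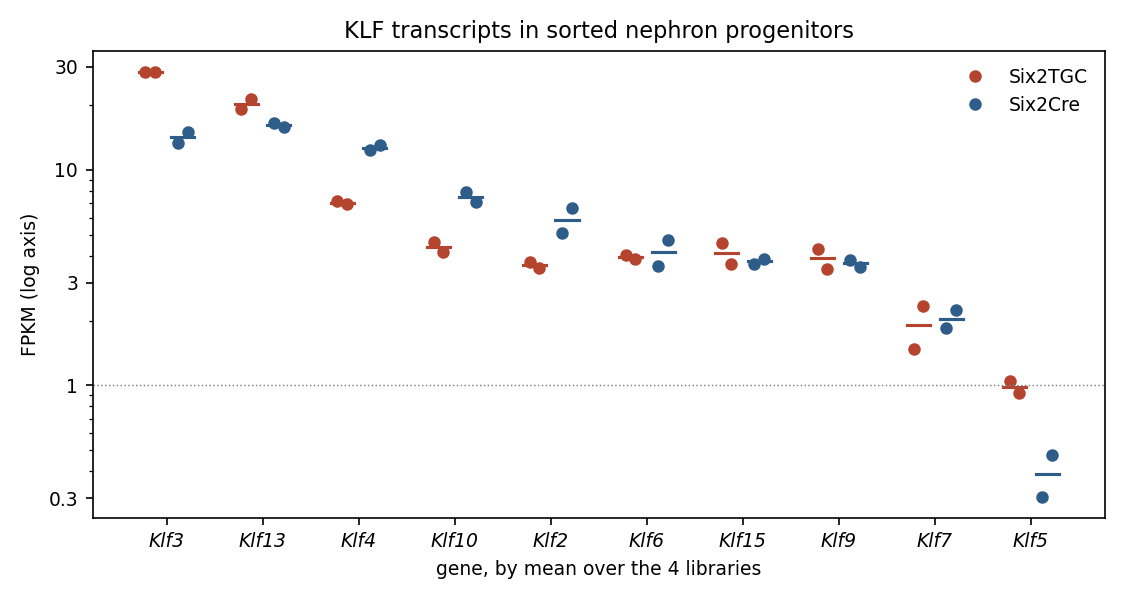
FPKM on a log axis of the 10 KLF genes in each library (points) with the mean of each line (bars), ordered by the mean over the 4 libraries, and a dotted line at FPKM 1. Klf3 lies near 28 in both Six2TGC libraries and between 13.4 and 15.0 in Six2Cre, while Klf4, Klf10 and Klf2 lie lower in both Six2TGC libraries.

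Klf3 encodes a repressor that recruits CtBP and is best known from blood and fat cells. It stood at 28.3 and 28.4 FPKM in Six2TGC, against 13.4 and 15.0 FPKM in Six2Cre. The Six2TGC libraries agree closely, and both lie well above both Six2Cre libraries. The mean was 28.4 ± 0.101 in Six2TGC against 14.2 ± 1.15 in Six2Cre (SD, n = 2 per line), 2.00-fold higher, with a log2 fold change of 0.95 ± 0.0899 (SE, limma adjusted p = 0.000442). Klf3 was the highest of the 10 in Six2TGC, where its mean was above that of 72.2% of tested genes, against 51.0% in Six2Cre. It was called under all 11 other settings and omissions of a library, with log2 fold changes between 0.88 and 1.03. In the deposited table the gene lies on mm10 chromosome 5 from 64803523 to 64830129. In GENCODE M21 exons of Klf3 overlap those of Gm20033, a noncoding gene on the opposite strand, and since the sources do not say whether counting used strand, reads of these genes cannot be told apart.

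Klf4, one of the factors used to reprogramme cells to pluripotency, went the other way. It stood at 7.16 and 6.91 FPKM in Six2TGC, against 12.4 and 13.0 FPKM in Six2Cre, with no overlap between the lines. The means were 7.04 ± 0.17 in Six2TGC and 12.7 ± 0.468 in Six2Cre (SD, n = 2 per line), a log2 fold change of -0.77 ± 0.0992 (SE, limma adjusted p = 0.00185). This was the largest fall among the 9 tested genes, and it too was called under all 11 other settings and omissions, between -0.84 and -0.73. The ratio of Klf3 to Klf4 within a library does not depend on how libraries are scaled. It was 3.96 and 4.11 in the Six2TGC libraries and 1.08 and 1.15 in the Six2Cre libraries. Klf3 transcripts thus exceeded those of Klf4 in every library, by far more in Six2TGC. Klf4 lies on mm10 chromosome 4 from 55527137 to 55532475, on the minus strand.

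The sequences before the starts of Klf3, Klf4 and Klf2 are shown because these genes went in opposite directions and because Klf2 and Klf4 are known early-response genes. Each run is the 250 bases before the RefSeq start (GRCm38.p6, the mm10 assembly), 5′ to 3′ on the gene's own strand. Capitals mark GC boxes, GGGCGG on either strand (CCGCCC when read on the other), which KLF and SP proteins can bind, and in Klf2 also a MEF2 box.
Klf3 (chr5:64803271-64803520, plus strand): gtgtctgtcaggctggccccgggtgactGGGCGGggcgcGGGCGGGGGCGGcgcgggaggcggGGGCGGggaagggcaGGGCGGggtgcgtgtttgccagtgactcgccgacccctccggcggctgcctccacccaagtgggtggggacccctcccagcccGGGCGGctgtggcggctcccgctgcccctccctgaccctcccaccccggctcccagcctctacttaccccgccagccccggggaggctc
Klf4 (chr4:55532476-55532725, minus strand): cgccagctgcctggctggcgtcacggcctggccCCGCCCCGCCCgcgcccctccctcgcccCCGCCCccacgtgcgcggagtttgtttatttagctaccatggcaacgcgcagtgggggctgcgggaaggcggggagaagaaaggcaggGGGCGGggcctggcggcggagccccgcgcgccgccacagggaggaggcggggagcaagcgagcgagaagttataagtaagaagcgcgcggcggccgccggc
Klf2 (chr8:72318812-72319061, plus strand): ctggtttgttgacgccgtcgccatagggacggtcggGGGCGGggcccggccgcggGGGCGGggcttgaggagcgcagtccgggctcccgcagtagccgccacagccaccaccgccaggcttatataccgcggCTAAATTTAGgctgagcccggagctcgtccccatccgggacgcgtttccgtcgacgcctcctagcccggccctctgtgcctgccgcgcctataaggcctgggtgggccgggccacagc

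The Klf3 window held 6 GC boxes, a pair of which adjoin, the Klf4 window 4, a pair of which overlap by 1 base, and the Klf2 window 2. The RefSeq table gave a window for 8 of the 10 genes. Klf5 and Klf10 had no window and were not searched. Of these 8, 7 held a GC box, against 32.7% of all 32851 promoter windows, and 6 held the letters CACCC, against 52.0%. The 8 windows were GC-rich, between 59.2% and 78.4%, where the median over all windows was 52.4%, and a GC box becomes likelier with GC content. The CArG box of the early-response factor SRF was found in 0 of the 8 windows (1.47% of all windows), the full cyclic AMP site TGACGTCA in 0 (1.55%) and the glucocorticoid receptor motif AGAACA in 0 (16.1%). The AP-1 site TGANTCA was found in Klf9 alone (6.75% of all windows). The MEF2 box in Klf2 begins 118 bases before the start, and such a box is present in 0.508% of all windows. That motif was added to the search after the letters had been read. Both strands were searched, and these matches describe letters within the window, not binding.

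Klf2, known from endothelial cells under flow and from resting T cells, stood at 3.73 and 3.50 FPKM in Six2TGC, against 5.07 and 6.64 FPKM in Six2Cre. The lines did not overlap, but the Six2Cre libraries lay apart from each other, by 0.33 on the log2 scale where the median over tested genes was 0.0954. The log2 fold change was -0.56 ± 0.15 (SE, limma adjusted p = 0.0324). That call was lost without any one of the 4 libraries, with log2 fold changes from -0.73 without Six2Cre replicate 1 to -0.40 without Six2Cre replicate 2 and adjusted p from 0.0567 to 0.228. It was not significant in the authors' deposited table (q = 0.106). Of 12 endothelial markers, 8 had both Six2TGC libraries below both Six2Cre libraries, 1 (Plvap) had them above and 3 overlapped. By the same rule 36.4% of all genes tested lay below and 29.5% above, while only 3 of these 12 markers passed the filter. Pecam1, a defining gene below the filter, stood at 0.222 and 0.0463 FPKM in Six2TGC, against 0.644 and 0.965 FPKM in Six2Cre. Plvap, the only called one, was higher, at 15.6 and 9.52 FPKM in Six2TGC, against 5.97 and 4.88 FPKM in Six2Cre. The list thus held genes on both sides of Klf2. The part of endothelial RNA in the Klf2 difference was not tested.

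Klf6, an early-response gene that is also needed in podocytes, stood at 4.04 and 3.85 FPKM in Six2TGC, against 3.56 and 4.72 FPKM in Six2Cre. The Six2TGC values lie inside the Six2Cre range. The log2 fold change was -0.05, with a 95% interval from -0.40 to 0.31 (limma adjusted p = 0.842), so a change within that interval could not be told from none. Set against Klf6 within a library, Klf4 was 1.77 and 1.80 times as abundant in Six2TGC and 3.47 and 2.76 times as abundant in Six2Cre.

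Klf7, known for its part in the growth of nerve cell processes, was low at 1.48 and 2.33 FPKM in Six2TGC, against 1.85 and 2.23 FPKM in Six2Cre, and the lines overlapped. Its Six2TGC libraries differed by 0.42 on the log2 scale, more than between the lines, and the interval of the log2 fold change ran from -0.52 to 0.37 around -0.08 (limma adjusted p = 0.801). Exons of Klf7 overlap those of the antisense gene Gm13748, so its reads too cannot be assigned to a strand.

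Klf5, an activator found in many epithelia, was the lowest of the 10 in both lines. It stood at 1.04 and 0.924 FPKM in Six2TGC, against 0.305 and 0.474 FPKM in Six2Cre. Both Six2TGC libraries lay above both Six2Cre libraries, and the ratio of the means, 0.984 ± 0.0857 over 0.389 ± 0.119 (SD, n = 2 per line), was 2.53. When all genes above 0 were tested its log2 fold change was 0.52 with no call (limma adjusted p = 0.0508), and the authors did not test it.

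Among the genes whose products recruit Sin3, Klf10, also called TIEG1 for its early induction by TGF-beta, was lower in Six2TGC. It stood at 4.62 and 4.18 FPKM in Six2TGC, against 7.85 and 7.08 FPKM in Six2Cre, with no overlap. The log2 fold change was -0.65 ± 0.123 (SE, limma adjusted p = 0.00897). The call was lost without Six2Cre replicate 1, at -0.58 (limma adjusted p = 0.104), and without Six2Cre replicate 2, at -0.71 (0.0594).

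Klf13, known from heart development and from T cells, stood at 19.2 and 21.3 FPKM in Six2TGC, against 16.5 and 15.8 FPKM in Six2Cre. It was the highest of the 10 in Six2Cre and next after Klf3 in Six2TGC. The difference was small, 1.25-fold with a log2 fold change of 0.31 ± 0.0916 (SE, limma adjusted p = 0.0474), and it rested on the choice of libraries. It kept its call without Six2TGC replicate 1, at 0.38, and lost it without any one of the others, with log2 fold changes from 0.24 to 0.34 and adjusted p from 0.126 to 0.240. The call also ended with the replicate number as a block (limma adjusted p = 0.0644), and Klf13 was not significant in the authors' deposited table (q = 0.184). In GENCODE M21 it shares its locus with E030018B13Rik on the opposite strand, which is listed at 0.

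Klf9 and Klf15, both known to respond to glucocorticoids, had no call and overlapped between the lines. Klf9 stood at 4.31 and 3.47 FPKM in Six2TGC, against 3.83 and 3.54 FPKM in Six2Cre, with an interval of the log2 fold change from -0.28 to 0.40. Klf15, which regulates amino acid and glucose metabolism, stood at 4.57 and 3.66 FPKM in Six2TGC, against 3.66 and 3.87 FPKM in Six2Cre, with an interval from -0.24 to 0.43. For both genes the Six2TGC libraries lay farther apart than the means of the lines. Within a library, Klf10 was 1.07 and 1.2 times as abundant as Klf9 in Six2TGC and 2.05 and 2.00 times in Six2Cre.

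**Figure D2:**
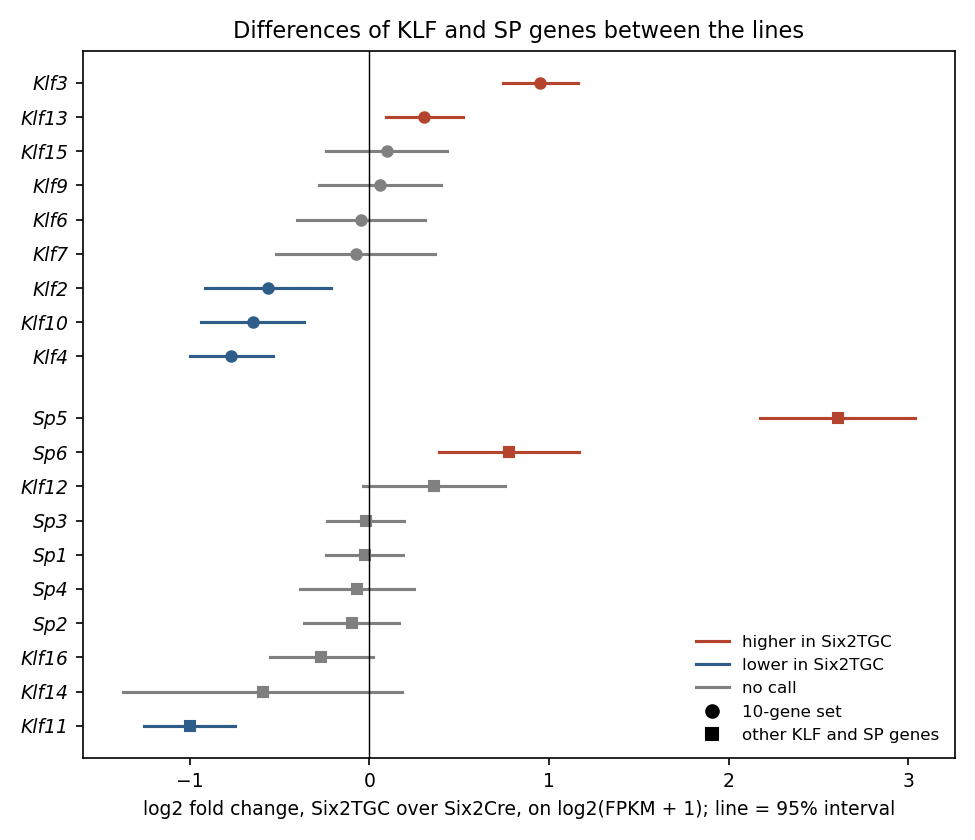
Log2 fold change, Six2TGC over Six2Cre, on log2(FPKM + 1) with its 95% interval from limma for the 9 tested KLF genes of the set (circles) and the 10 other tested KLF and SP genes (squares). Klf3 (0.95) and Klf4 (-0.77) bound the set, and Sp5 (2.61) and Klf11 (-1.0) bound the relatives.

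The order of the 10 genes by level changed with these differences. In Six2TGC the order was Klf3, Klf13, Klf4, then Klf10, Klf15, Klf6, Klf9 and Klf2 close together, then Klf7 and Klf5. From Klf10 to Klf2 each neighbour overlapped the next in its libraries, so their order is not resolved. In Six2Cre the order was Klf13, Klf3, Klf4, Klf10, Klf2, then Klf6, Klf15 and Klf9, and last Klf7 and Klf5. There Klf6, Klf15 and Klf9 overlapped their neighbours in that run, while Klf4, Klf10 and Klf2 each stood clear. Klf3 exceeded Klf13 in Six2TGC, with ratios of 1.47 and 1.34, and lay below it in Six2Cre, with ratios of 0.811 and 0.951.

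The summed FPKM of the 10 genes was 78.4 and 78.5 in Six2TGC and 68.4 and 72.4 in Six2Cre. Klf3 alone made up 36.1% and 36.2% of that sum in Six2TGC and 19.6% and 20.7% in Six2Cre. Klf4 made up 9.12% and 8.81% in Six2TGC and 18.08% and 17.99% in Six2Cre. Over all 17 KLF genes of the table the sums lay close together, at 106.1 and 109.4 FPKM in Six2TGC, against 109.5 and 109.8 FPKM in Six2Cre. By partner, the activators Klf2, Klf4, Klf5, Klf6 and Klf7 summed to 17.4 and 17.5 in Six2TGC, against 23.2 and 27.1 in Six2Cre. The CtBP-binding group, Klf3 with its relatives Klf8 and Klf12, summed to 30.5 and 30.3 in Six2TGC, against 14.8 and 16.6 in Six2Cre. The Sin3-binding group, Klf9, Klf10, Klf11, Klf13, Klf14 and Klf16, had the largest sums, 52.8 and 56.7 in Six2TGC, against 67.2 and 61.7 in Six2Cre. The sums of the groups of repressors thus lay on opposite sides, but their members did not move as groups. Klf3 alone gave 28.3 and 28.4 of the CtBP-binding sums in Six2TGC, and 13.4 and 15.0 in Six2Cre. In the Sin3-binding group Klf13 was called higher and Klf10 and Klf11 lower, while Klf9, Klf14 and Klf16 had no call. The sums were not tested.

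**Figure D3:**
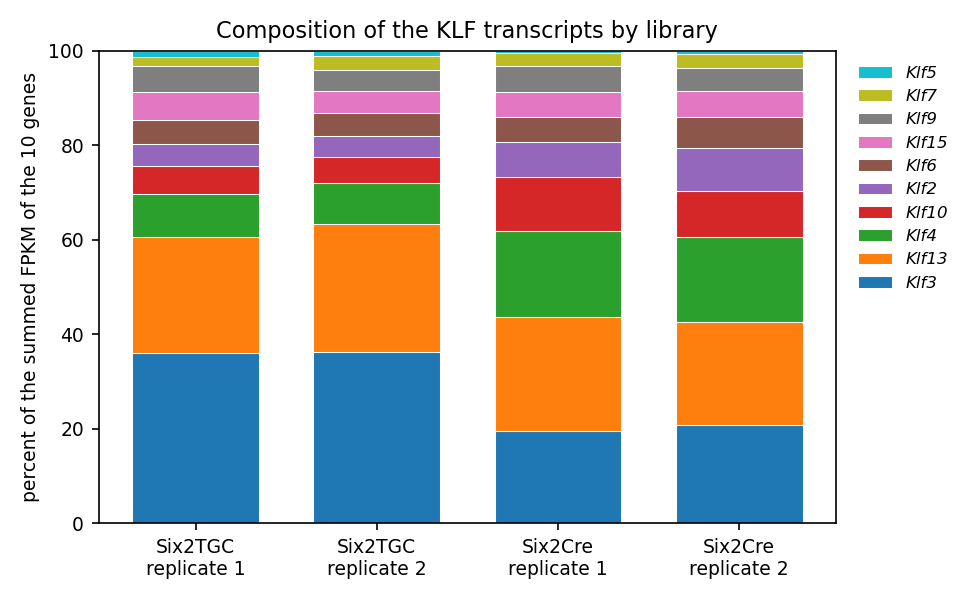
Share of each gene in the summed FPKM of the 10 KLF genes, in percent, for each library. The Klf3 segment is 36.1% and 36.2% in the Six2TGC libraries and 19.6% and 20.7% in the Six2Cre libraries, and the Klf4 segment is smaller in Six2TGC.

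The other KLF genes and the SP genes, which share the zinc finger domain, were read from a list of 16. Among the 10 tested, 2 were higher (10.8% of all genes tested), 1 was lower (13.5% of all genes tested) and no call was made for 7. The median log2 fold change was -0.05. Klf11, the closest relative of Klf10, stood at 4.88 and 4.75 FPKM in Six2TGC, against 10.99 and 10.3 FPKM in Six2Cre. Its log2 fold change was -1.0 ± 0.109 (SE, limma adjusted p = 0.000872), so both genes of that pair fell. Klf12, like Klf3 a CtBP-binding repressor, stood at 1.54 and 1.30 FPKM in Six2TGC, against 0.854 and 0.915 FPKM in Six2Cre, with no call (limma adjusted p = 0.165). Klf16 had no call either, at 18.4 and 22.8 FPKM in Six2TGC, against 26.6 and 23.2 FPKM in Six2Cre.

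Sp5, a target of Wnt signalling that acts as a repressor, stood at 11.2 and 16.5 FPKM in Six2TGC, against 1.52 and 1.29 FPKM in Six2Cre, the largest difference among the tested KLF and SP genes, at a log2 fold change of 2.61 (limma adjusted p = 0.000155). Sp6 was higher too, at 1.75 and 1.62 FPKM in Six2TGC, against 0.556 and 0.570 FPKM in Six2Cre, a call lost without Six2Cre replicate 1 (limma adjusted p = 0.106) and without Six2Cre replicate 2 (0.0935), and Sp6 fell below the filter without either Six2TGC library. Without each library in turn the count of higher genes was 1, and that of lower genes was 1 or 2. The broadly expressed Sp1 and Sp3 had no call, with intervals of the log2 fold change from -0.24 to 0.19 for each. Klf17 and Sp8 were listed at 0 in all libraries.

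**Figure D4:**
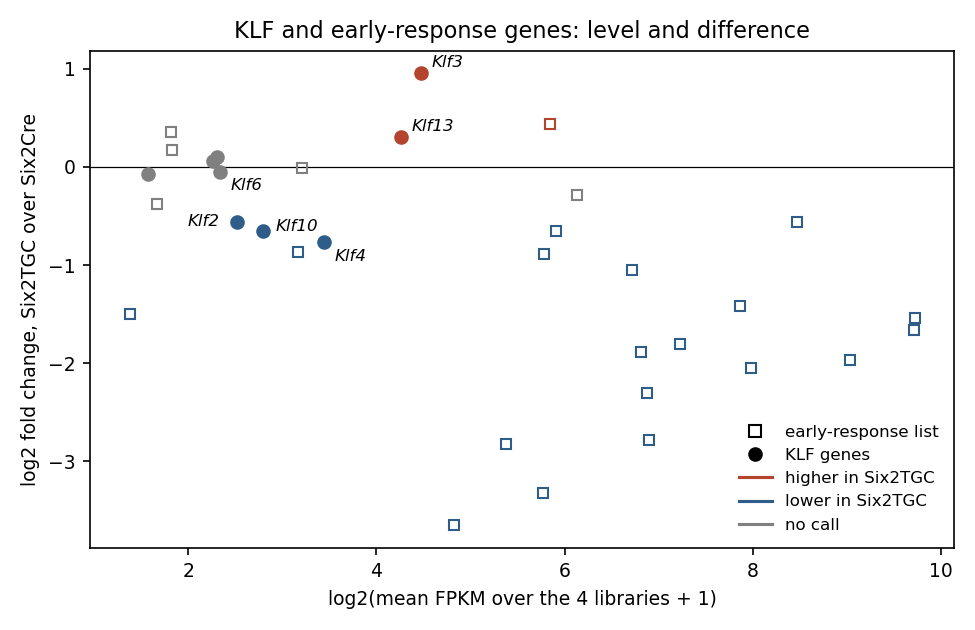
Log2 fold change, Six2TGC over Six2Cre, against log2(mean FPKM + 1) for the 9 tested KLF genes (filled circles) and the 24 tested early-response genes (open squares), coloured by call. Klf2, Klf4 and Klf10 lie at -0.56, -0.77 and -0.65, above the median of the early-response list at -1.46.

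Klf2, Klf4 and Klf10 fell together with most of a list of early-response genes. Of 24 tested, 18 were lower, 1 higher and 5 had no call, with a median log2 fold change of -1.46, and 16 to 18 were lower without each library in turn. Among all genes tested 13.5% were lower and 10.8% higher. The largest falls of the list were in the transcription factor genes Egr3 (-3.65), Nr4a1 (-3.33) and Egr2 (-2.82) and in the growth inhibitor gene Btg2 (-2.79). The Egr3 call was lost without Six2Cre replicate 1 (-3.64) and without Six2Cre replicate 2 (-3.66). The summed FPKM of the list was 1956 and 2149 in Six2TGC and 6012 and 5963 in Six2Cre. Early-response transcripts can also move with cell dissociation and sorting, and the part of handling in the KLF differences was not tested. Klf6, of the same kind, had no call.

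Genes whose products act upstream of KLF genes were read from a further list. Among the 20 tested, 3 were higher (10.8% of all genes tested), 1 was lower (13.5% of all genes tested) and no call was made for 16. The median was 0.09. Mef2c, one of the MEF2 factors through which the kinase ERK5 induces Klf2 and Klf4, was higher at FPKM 4.14 and 4.04 in Six2TGC against 0.629 and 0.391 in Six2Cre, a log2 fold change of 1.76 (limma adjusted p = 0.000410). The MEF2 genes Mef2a and Mef2d were more abundant than Mef2c in every library and had no call. Mef2a lay lower in Six2TGC, at 9.21 and 10.1 FPKM, against 11.1 and 12.8 FPKM in Six2Cre. Its log2 fold change was -0.29 (limma adjusted p = 0.0986). Mef2d lay slightly higher, at a mean FPKM of 17.1 in Six2TGC against 15.7 in Six2Cre, a log2 fold change of 0.12. Mapk7, the gene of ERK5 itself, had no call at 0.14. Srf, a factor of the early response and also in that list, fell (-0.65, limma adjusted p = 0.00266). Smad3 (0.38), which carries TGF-beta signals, and Foxo3 (0.37) were higher, and both calls were lost without Six2Cre replicate 1 (0.37 and 0.31) and without Six2Cre replicate 2 (0.39 and 0.42). Without each library in turn 1 to 5 genes of the list were higher.

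Partner genes had 1 call, beside 24.3% called among all genes tested. Of 16 genes for CtBP, Sin3, deacetylases, acetyltransferases and ubiquitin ligases that act with KLF proteins, 1 was higher and 15 had no call (limma), with a median of -0.05. The single call was Crebbp, an acetyltransferase gene, at 0.28 (limma adjusted p = 0.0428), which was lost without any one library (adjusted p from 0.0729 to 0.202). Ctbp1, the partner of Klf3, stood at 187 and 196 FPKM in Six2TGC, against 217 and 210 FPKM in Six2Cre with no call (limma adjusted p = 0.148). At a mean FPKM of at least 5, 1 partner gene was higher and 1 lower. With the replicate block 0 were higher and 1 was lower.

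Of 13 tested genes described as KLF targets in various tissues, 5 were higher, 2 lower and 6 had no call, with a median of 0.0049. The shares over all genes tested were 10.8% higher and 13.5% lower. Thbd, a target of Klf2 and Klf4 in endothelium, was higher in Six2TGC, at 3.84 and 4.72 FPKM, against 0.774 and 0.840 FPKM in Six2Cre (log2 fold change 1.54). Cdkn1a (1.39), Ccnd1 (1.02) and Pdgfa (0.71) were higher as well. Klf4 is known to raise Cdkn1a and to lower Ccnd1 in other cells, and here Klf4 was lower while both were higher. Whether KLF proteins act on the listed targets in these cells was not tested. Without each library in turn 4 to 5 targets were higher and 0 to 3 lower. Of 11 tested glucocorticoid-response genes, 2 were higher, Ddit4 (1.03) and Sgk1 (0.98), and 3 lower, of which Dusp1 (-0.89), also in the early-response list, and Errfi1 (-0.41) had the largest falls. The median was -0.04, and the shares over all genes tested are those given for the targets. The Errfi1 call was lost without Six2TGC replicate 2 (-0.32), Six2Cre replicate 1 (-0.43) and Six2Cre replicate 2 (-0.39), and 1 to 4 genes were lower without each library.

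Markers of other cells that carry KLF transcripts were read beside these values. In bulk RNA, fewer cells of a type and less RNA per cell cannot be told apart. Marker calls here and in the next paragraph stand beside 10.8% higher and 13.5% lower among all genes tested. Of the 12 endothelial markers 3 passed the filter, with 1 higher (Plvap), while with no filter 1 was higher and 3 were lower. The whole list summed to 37.0 and 23.4 in Six2TGC, against 30.1 and 27.8 in Six2Cre, and without Plvap to 21.4 and 13.8 in Six2TGC, against 24.2 and 22.9 in Six2Cre. The Plvap call (1.05) was lost without Six2Cre replicate 1 (limma adjusted p = 0.0704) and without Six2Cre replicate 2 (0.115). Of 12 immune markers 2 passed, 1 higher (C1qa) and 1 lower (Cd68), with Ptprc at most 0.0495 in any library and Cd3e listed at 0 in all. C1qa fell below the filter without either Six2TGC library. The immune sums were 12.9 and 12.7 in Six2TGC, against 21.8 and 19.01 in Six2Cre. Cd68 set that direction, since without it the sums were 5.62 and 4.69 in Six2TGC, against 2.66 and 0.872 in Six2Cre.

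Of 12 ureteric markers, genes of the bud and duct cells in which Klf5 is known, 4 passed with 1 higher (Wnt11) and 3 lower, and the list summed to 10.8 and 8.92 in Six2TGC and 22.1 and 28.2 in Six2Cre. Krt18 made up most of that difference, at 2.82 and 1.79 FPKM in Six2TGC, against 12.2 and 17.5 FPKM in Six2Cre. Klf5 values lay on the other side, above in Six2TGC. Of 10 markers of mature tubule and duct 4 passed, all 4 lower in Six2TGC, with sums of 4.14 and 4.33 in Six2TGC and 35.3 and 19.4 in Six2Cre. Without each library in turn 1 to 4 of these were lower, as were 1 to 4 of the ureteric markers. Of 14 stromal markers 11 passed, with 4 higher and 1 lower. Acta2 (1.29), Pdgfra (1.10), Pdgfrb (1.03) and Foxd1 (0.66) were higher and Meis1 (-0.98) was lower. Foxd1 stood at 56.9 and 55.2 FPKM in Six2TGC, against 37.3 and 33.2 FPKM in Six2Cre. Of the 14, 6 had both Six2TGC libraries above both Six2Cre libraries, 2 had them below and 6 overlapped. Among all genes tested 29.5% lay above and 36.4% below, 65.9% in all. The list summed to 271 and 216 in Six2TGC, against 189 and 161 in Six2Cre. Without Six2Cre replicate 1 the calls of Acta2 (1.19), Pdgfra (0.96) and Pdgfrb (0.84) were lost, and that of Acta2 also without Six2Cre replicate 2 (1.38). Meis1 lost its call without Six2TGC replicate 1 (-1.11), Six2TGC replicate 2 (-0.85) and Six2Cre replicate 1 (-0.65). The part of these cells in the KLF differences was not tested.

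The genes with a pattern most like Klf3 over the 4 libraries, by the root mean square difference of centred log2(FPKM + 1), were Adamts9 (0.00847), Fbn2 (0.0325) and Prkg2 (0.0346). Adamts9, a gene for a secreted protease, stood at 20.95 and 21.01 FPKM in Six2TGC, against 9.62 and 10.9 FPKM in Six2Cre. Those most like Klf4 were Cdkn3 (0.0112), Rpl35 (0.0253) and Gsta4 (0.0294). Cdkn3, a cell cycle phosphatase gene, stood at 4.33 and 4.12 FPKM in Six2TGC, against 7.71 and 7.98 FPKM in Six2Cre. The Cdkn3 call was lost without Six2Cre replicate 2 (-0.74, limma adjusted p = 0.0528). Rpl35 has near-identical pseudogenes, so its value is uncertain. With 4 libraries in a pair of lines, any gene with a like difference and small spread comes close by this measure.

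**Figure D5:**
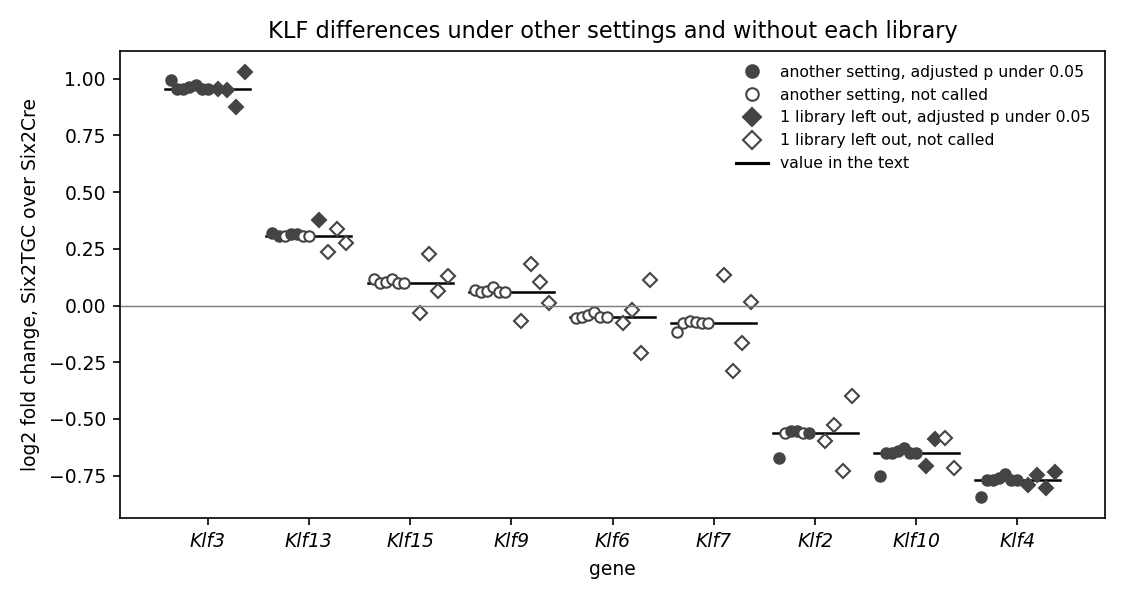
Log2 fold change, Six2TGC over Six2Cre, of the 9 tested KLF genes in the text (bars), under other settings (circles) and without each library (diamonds, from left Six2TGC replicates 1 and 2 and Six2Cre replicates 1 and 2), filled where the adjusted p was under 0.05. Klf3 and Klf4 are filled throughout, Klf2 is open without any 1 library, and Klf6, Klf7, Klf9 and Klf15 are open throughout and scatter around 0.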

How the data were processed

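Polyadenylated RNA of sorted cells was sequenced in 4 libraries, grouped by their titles. The submitters' processing notes name HISAT2, Cuffdiff and mm10, without versions. The sources used here do not give trimming, annotation or strand use. The authors deposited FPKM per gene and library with line means, and a test score, p-value and q-value of their own comparison, per the file headers. FPKM is scaled by length and library size, so it depends on how reads were assigned. The table holds no counts, so depth was estimated only as a ratio, from the most frequent ratio of values up to 0.4 FPKM, and values carry no counting interval.

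Genes averaging 1 FPKM or more were fitted on log2(FPKM + 1) in limma 3.58.1 (R 4.3.3; empirical Bayes with trend and robust options, two-sided, no covariate), at a Benjamini-Hochberg adjusted p under 0.05 over all genes tested. An exact permutation of 2 against 2 libraries cannot go below p = 0.333 and was not used. The code was tested on simulated data. Library names form 1 run of numbers per line and no dates are given, so a batch and the line cannot be told apart. Deposited starts, counted from 0, were raised by 1. Promoters came from RefSeq and gene models from GENCODE M21.

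The 10 genes and the 13 other lists were chosen with earlier results of these data known. The result of 1 marker list is not reported here. All 10 genes are named, as are called KLF and SP relatives, up to 4 called genes of each other list with the largest changes and the 3 genes nearest in pattern to the largest rise and the largest fall. Others (Ctbp1, Mapk7, Mef2a, Mef2d, Klf12, Klf14, Klf16, Klf17, Sp1, Sp3, Sp8, Ddx3y and the markers) were named after their values were seen. Protein sequences were not used here. Alternatives were a pseudocount of 0.1, a mean FPKM of at least 5 or above 0, TMM rescaling, quantile normalization, limma without trend or robust, a replicate block, and each library left out.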

Additional observations from a re-analysis of the deposited data

How the results depend on the processing

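Klf3 (0.88 to 1.03) and Klf4 (-0.84 to -0.73) kept their calls under all 11 other fits, and every called gene of the 9 kept its direction. The count of higher KLF genes was 1, Klf3, against 2, with no filter on low values, with limma without trend or robust, with the replicate block and in the authors' deposited table, and ran from 1 to 2 without each library. The count of lower genes ran from 1 to 2 without each library, against 3. The count of all genes called was 2900, against 1637 in the authors' deposited table, and ran from 1010 to 2803 without each library. It was 1010 without Six2Cre replicate 1 and 1143 without Six2Cre replicate 2, and the cause was not tested. Klf2 was also not called with no filter (limma adjusted p = 0.0655) or without trend or robust (0.0512), and at -0.56 in both. Uncalled genes changed sign without a library. Klf6 ran from -0.21 to 0.11 (0.11 without Six2Cre replicate 2) and Klf7 from -0.29 to 0.13, with 0.13 without Six2TGC replicate 1 and 0.01 without Six2Cre replicate 2. Klf9 ran from -0.066 to 0.18 and Klf15 from -0.032 to 0.23, each lowest without Six2TGC replicate 1. The Klf5 difference of 0.52 became 1.17 with a pseudocount of 0.1. Of 286 counts over the other lists, 63 moved by over 1.5 times or moved to or from 0. The median log2 fold change of all genes tested did not exceed 0.037 in size in any fit. TMM rescaling and quantile normalization turned no direction among the 9 tested KLF genes. Replicate numbers did not pair the libraries (r = -0.0399 across genes between deviations of same-numbered libraries), and the fit with the replicate block called 2713 genes. TMM factors were unweighted and used as a scale. Klf2, Klf5, Klf6, Klf7, Klf9 and Klf15 have no value at a mean FPKM of at least 5. The table holds no counts, so what depth limits in low genes could not be measured.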
